A study of Mus musculus with 6 samples.

Results

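Suprabasal keratinocytes are the epidermal cells that have left the basal layer and begun to differentiate. Among 21178 skin cells of 6 mice, 743 met a rule set on measured values. A cell needed a summed level of Krt1 and Krt10 of at least 50 UMIs (unique molecular identifiers, one per captured RNA molecule) per 10000 UMIs of the cell. It also had no UMI of Ptprc or Cd3e, which mark leukocytes and T cells, and did not carry both Mki67 and Top2a, which mark dividing cells. The numbers per mouse were 229 and 227 in the NO_AG mice, 174 and 23 in the AG mice, and 36 and 54 in the AG_CPI mice. The levels of those 6 genes are therefore no finding, and the genes were left out of every test.

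All 6 mice were of the NINJA strain, which carries an inducible neoantigen, and were 6 to 12 weeks old. In each, single cells came from skin that had been treated with 4-OH-Tam (4-hydroxytamoxifen), and the 5' kit of 10x Genomics was used. The series describes NO_AG as antigen off, AG as antigen on, and AG_CPI as antigen on with CPI, with 2 mice each. Per the labels' protocols, every mouse had first been checked for visible skin disease and for P14 CD8 T cells (cells with a transgenic receptor) in its skin. Which cells switch on the antigen, which agents CPI stands for, and the sex of the mice are not given in the sources used here. The title of the series names the question, which is how PD-1 restrains CD8 T cells that enter the skin.

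A basal keratinocyte that leaves the basement membrane switches from the keratin pair Krt5 and Krt14 to Krt1 and Krt10, and its desmosomes and lipid synthesis are remodelled on the way to the granular and cornified layers. Krtdap, Sbsn and Dmkn are secreted products of these differentiating layers, and Krt77 is a further suprabasal keratin. Wounded or inflamed epidermis adds the stress keratins Krt6a, Krt16 and Krt17 and small proline-rich proteins such as Sprr1b. Keratinocytes also answer interferons, with Isg15 and its relatives after type I interferon, and Gbp2 and Cxcl9 after interferon gamma.

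The libraries differed in depth and in the number of these cells, and the comparisons below carry those differences. Total UMIs per library ranged from 5903724 to 24656382. The median suprabasal cell held 7188 and 7374 UMIs in the NO_AG mice, 6963.5 and 3966 in the AG mice, and 2759 and 2192 in the AG_CPI mice. AG 2 stood apart with 23 cells and AG_CPI 1 by sex: a UMI of the Y-linked gene Ddx3y was found in 16.7% of its suprabasal cells (95% Wilson interval 7.87% to 31.9%) and Xist in 0 of 36, while the other 5 mice had no Ddx3y UMI and Xist in 46.3% to 92.1% of these cells. Beside the comparisons of groups, the numbers of called genes and the main genes are given without AG 2 and without AG_CPI 1. Library pairs shared 5 to 35 cell barcodes. Removing the cells with the highest doublet scores of each library took away at most 3 suprabasal cells from a mouse. Intervals cover counting error only.

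The label was checked against genes that the rule did not use. Levels below are means over the suprabasal cells of a mouse, in UMIs per 10000, scaled with TMM factors (trimmed mean of M-values), a method that evens out differences in composition between mice. Krtdap was at 100.1 and 107 in the NO_AG mice, 107 and 118 in the AG mice, and 62.2 and 90.7 in the AG_CPI mice, so it was abundant in every mouse. At least 96.5% of the suprabasal cells of each mouse had a Krtdap UMI, against 5.36% to 19.2% of the T cells of the same libraries, whose median depth was 2425 to 2986 UMIs. Sbsn lay between 7.77 and 26.4 and Dmkn between 16 and 32.8 over the 6 mice. Krt77 did not follow the label everywhere: it was at 34.6 and 53.7 in NO_AG and 34.1 in AG 1, but at 1.40 in AG 2, 1.99 in AG_CPI 1 and 0.298 in AG_CPI 2. Of the late markers, loricrin was scarce. Lor, a main protein of the cornified envelope, reached 20 UMIs per 10000 in 0 of the 743 cells, which allows up to 1.31% and 1.32% of the NO_AG cells, 1.72% and 13.0% in AG, and 8.33% and 5.56% in AG_CPI. The 26 measured granular and cornified genes summed to 10.9 to 16.4 UMIs per 10000, in deposited units, in 5 mice and to 122 in AG_CPI 2. Of that sum in AG_CPI 2, 93.9 came from the protease inhibitor Cst6.

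Cells lay close to the threshold on both sides. Over all mice, 48 suprabasal cells had 50 to 60 UMIs per 10000 of Krt1 and Krt10, and 77 cells just outside had 40 to 50. The mean Krtdap level was 53.0 inside and 40.5 outside, Krt77 8.2 and 12.3, Krt5 67.6 and 58.4, and Krt14 103 and 89.3, in deposited units. By mouse, Krt14 was at 30.4 or more on both sides of the threshold in all 6, while Krt5 in AG_CPI 2 was at 0 inside (8 cells) and 2.90 outside (9 cells), against 105 and 91.8 inside in the NO_AG mice.

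Within the suprabasal cells, the NO_AG mice showed a graded exchange of keratins. In NO_AG 1, mean Krt14 went from 83.6 in cells with 50 to 100 UMIs of Krt1 and Krt10 to 27.1 in those with 100 to 200 and 9.28 in those with 200 to 400, and in NO_AG 2 from 93.3 to 21.3 and 4.68. Krtdap went the other way, from 44.5 to 89.2 and 127 in NO_AG 1 and from 36.9 to 105 and 149 in NO_AG 2. These are descriptions without a test, because the bins use the genes of the rule. In all 4 mice with antigen, mean Krt14 was higher than in both NO_AG mice in the bins of 100 to 200 and of 200 to 400. In the bin of 100 to 200, it was at 71.6 in AG 1 (41 cells), 110 in AG 2 (4 cells), 58.4 in AG_CPI 1 (10 cells) and 109 in AG_CPI 2 (7 cells). In the bin of 200 to 400, it was at 45.7 in AG 1 (52 cells), 94.4 in AG 2 (11 cells), 11.4 in AG_CPI 1 (10 cells) and 88.2 in AG_CPI 2 (16 cells). AG_CPI 1 lay only slightly above NO_AG 1 in the second of these bins, and the values of AG 2 and both AG_CPI mice rest on few cells. The bin of 50 to 100 did not share this order. Krt14 there was at 129 in AG 1 (44 cells) and 85.7 in AG 2 (7 cells). It was at 94.3 in AG_CPI 1 (13 cells) and 37.6 in AG_CPI 2 (28 cells), against 83.6 and 93.3 in NO_AG.

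**Figure D1:**
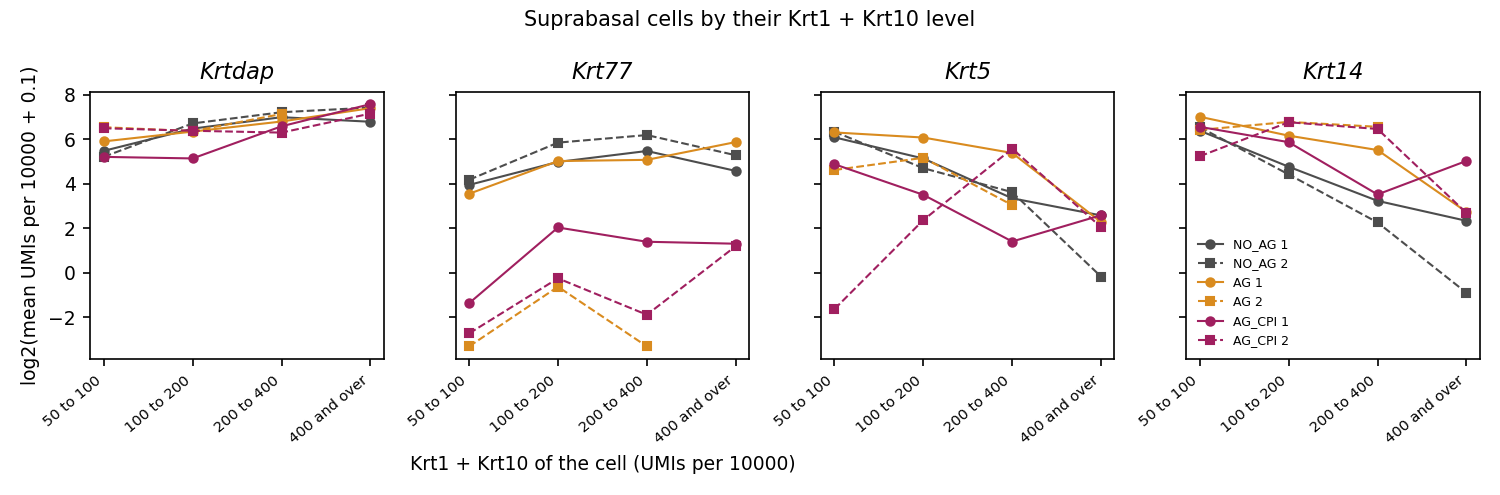
Mean levels of Krtdap, Krt77, Krt5 and Krt14 (log2 of UMIs per 10000 plus 0.1) in suprabasal cells binned by their own Krt1 plus Krt10 level, 1 line per mouse; bins with fewer than 3 cells are not drawn. In the bin of 200 to 400, Krt14 was at 9.28 and 4.68 in the NO_AG mice and at 45.7 and 94.4 in the AG mice, and Krt77 stayed low in AG 2 and both AG_CPI mice.

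The suprabasal cells of the mice with antigen also differed in which other keratins they carried. A Krt77 level of at least 10 UMIs per 10000 was found in 69.0% and 81.5% of the suprabasal cells of NO_AG mice, 60.9% of AG 1, 4.35% of AG 2, 2.78% of AG_CPI 1 and 0 of 54 cells of AG_CPI 2, which allows up to 5.56%. AG 1 lay near NO_AG in this keratin, and AG 2 lay with AG_CPI. A Krt79 level of at least 10 was found in 6.55% and 11.9% in the NO_AG mice, 24.7% and 21.7% in the AG mice, and 47.2% and 68.5% in the AG_CPI mice, so the 3 groups did not overlap. Krt79 is known as a keratin of the upper hair follicle and sebaceous duct. In each mouse, the cells of this range, 144 in all, had higher mean levels of Krt17 (a follicular and stress keratin), Defb6 (a defensin) and Cst6 (a protease inhibitor) than the other suprabasal cells. In NO_AG 1, Krt17 was at 63.1 in them against 0.393 in the other suprabasal cells, Defb6 at 114 against 2.72, Cst6 at 116 against 2.12, and Krt5 at 0.192 against 30.5. In AG_CPI 2, Krt17 was at 71.7 against 0.937, Defb6 at 75.7 against 1.34, Cst6 at 136 against 1.81, and Krt5 at 0.166 against 47.6. Krt5 was lower in this range in all mice but AG_CPI 1, with 16.7 against 13.3. The rule on Krt1 and Krt10 thus took in cells that carry genes known from the upper follicle, and their share differed between the groups. This range was chosen after its values were seen, and the comparisons of genes below were repeated without it.

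**Figure D2:**
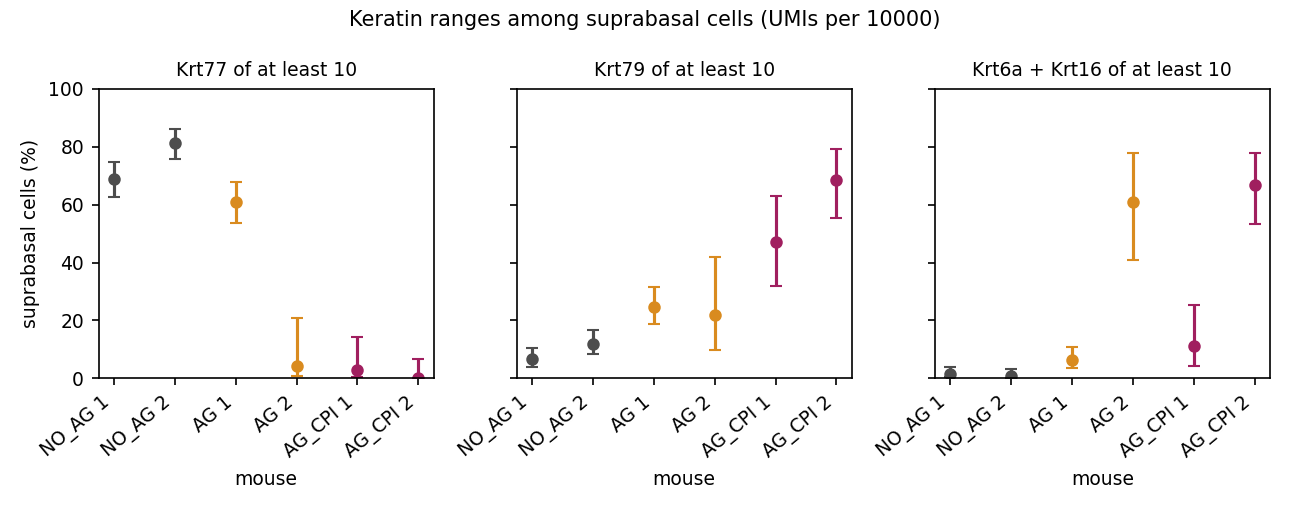
Percentage of the suprabasal cells of each mouse with at least 10 UMIs per 10000 of Krt77, of Krt79, and of Krt6a plus Krt16, with 95% Wilson intervals. Krt77 was at 4.35% or less in AG 2 and both AG_CPI mice, Krt79 reached 47.2% and 68.5% in AG_CPI, and the stress keratins reached 60.9% in AG 2 and 66.7% in AG_CPI 2.

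Stress keratins had yet another order. Krt6a and Krt16 summed to at least 10 in 1.31% and 0.881% of the suprabasal cells in the NO_AG mice, 6.32% and 60.9% in the AG mice, and 11.1% and 66.7% in the AG_CPI mice. The shares of cells were high in AG 2 and AG_CPI 2 and lower in AG 1 and AG_CPI 1, where 11 and 4 cells reached this level, and both NO_AG mice lay below all others.

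The share of keratinocytes that were suprabasal was compared next, with keratinocytes defined as cells with at least 50 UMIs per 10000 of Krt1, Krt10, Krt5 and Krt14 together and no Ptprc or Cd3e UMI. It was 11.1% (229 of 2068) and 14.3% (227 of 1590) in NO_AG, 18.2% (174 of 957) and 1.68% (23 of 1372) in AG, and 23.2% (36 of 155) and 24.7% (54 of 219) in AG_CPI. At this threshold both AG_CPI mice lay above all others, and AG 2 lay below all others. The group means were 12.7% ± 2.27 (SD, n = 2), 9.93% ± 11.7 and 23.9% ± 1.01. AG_CPI exceeded NO_AG by 11.3 percentage points and AG by 14.0 (exact permutation test, two-sided, p = 0.333 for each), and AG lay 2.75 points below NO_AG (exact permutation p = 1.0). With 2 mice a group this test cannot give a p below 0.333. Without AG 2, AG lay 5.51 points above NO_AG, so 1 mouse set that direction. The excess of AG_CPI depended on where the suprabasal cells end. With a Krt1 and Krt10 threshold of 100, the NO_AG mice had shares of 9.14% and 11.3%, the AG mice 13.6% and 1.17%, and the AG_CPI mice 14.8% and 11.9%, so AG_CPI 2 fell below AG 1 and AG_CPI exceeded NO_AG by 3.13 points (exact permutation p = 0.333). Without the cells of the Krt79 range above, the other suprabasal cells made up 10.3% and 12.6% of the keratinocytes of the NO_AG mice, 13.7% and 1.31% of those of the AG mice, and 12.3% (19 cells) and 7.76% (17 cells) of those of the AG_CPI mice. The difference of AG_CPI from NO_AG was then -1.45 points (exact permutation p = 0.667), so the excess was not seen outside that range. The keratinocytes in these shares still included the cells of that range, which lowers the shares most in AG_CPI. The sign of this small difference is therefore no finding.

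**Figure D3:**
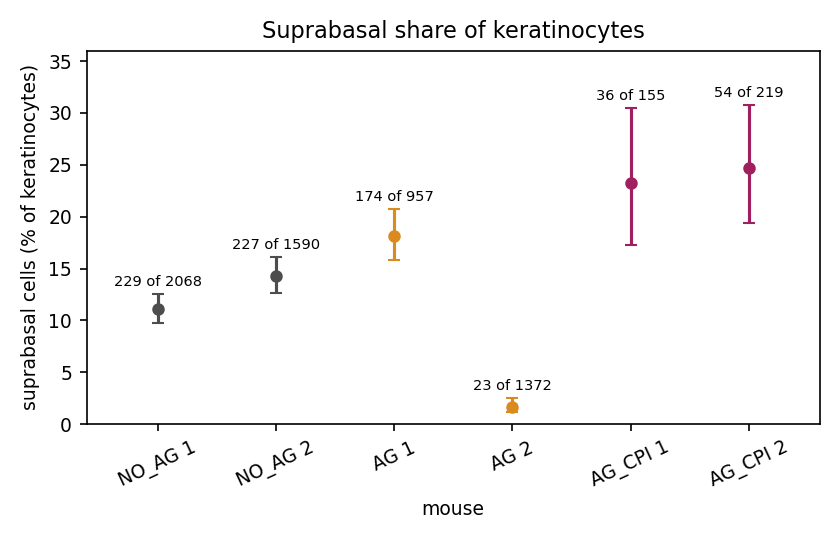
Suprabasal cells as a percentage of keratinocytes in each mouse, with 95% Wilson intervals and the numbers of cells above them. The AG_CPI mice had 23.2% and 24.7%, the NO_AG mice 11.1% and 14.3%, and the AG mice 18.2% and 1.68%.

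Against keratinocytes that carried Krt5 or Krt14 and little Krt1 or Krt10, the suprabasal cells showed the program their rule selects. The other set held 4250 cells with a summed Krt5 and Krt14 level of at least 50 and a Krt1 and Krt10 level below 10. The 8223 genes compared were abundant enough in at least 1 of the sets, so genes found almost only in 1 set were included. Of them, 523 (6.36%) lay at least 2-fold apart on average and in the same direction in all 6 mice. These were 214 (2.60%) higher and 309 (3.76%) lower in suprabasal cells. No test is given, since the cells were chosen by their keratins. The higher genes included calcium binding and secreted proteins of the spinous layer. Calm4, a skin calmodulin, was higher by 3.66 to 4.47 on the log2 scale in single mice, and Sbsn by 2.11 to 2.88. Genes of lipid handling were among them, with the fatty acid binding protein Fabp5 higher by 1.65 to 3.15, the glycolipid transfer protein Gltp by 2.12 to 2.76, and Elovl4, which elongates the very long chains of barrier lipids, by 1.86 to 3.83. Perp, a desmosome protein, was higher by 1.08 to 1.65, Ly6d by 1.11 to 2.05 and Lgals3 by 1.09 to 2.42. Fam25c, Rab25 and 1810037I17Rik were higher by 2.10 to 3.41, 1.68 to 2.17 and 1.56 to 2.33.

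The genes lower in suprabasal cells included regulators of growth and genes of the basal and follicular compartments. The cyclins Ccnd1 and Ccnd2, which drive entry into the cell cycle, differed by -2.74 to -1.42 and by -2.72 to -1.83 in single mice. Ptn, a heparin binding growth factor, differed by -4.61 to -2.17, and Fst, an activin inhibitor, by -4.20 to -1.75. The transcription factors Nfib and Sox9, both known from hair follicle stem cells, differed by -1.58 to -1.17 and by -3.06 to -0.53. Cd74, the invariant chain of class II presentation, differed by -2.69 to -0.74, and Apoe, Fcgbp, Cxcl14, Ucp2 and Cav1 were lower in every mouse as well. By list, 19 of 22 compared early differentiation genes were at least 2-fold higher and in the same direction in all mice, as were 10 of 25 junction genes and 8 of 24 barrier lipid genes, of which 2 more were lower, and 12 of 16 basal layer genes were lower by the same criterion. Of the 36 granular and cornified genes listed, 9 were abundant enough to be compared, and 3 of them met it upward. Of 7 class II genes, 3 met it downward.

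What antigen changed in the suprabasal cells was asked by AG against NO_AG. Of 6889 genes tested with limma, 13 (0.189%) passed at a Benjamini-Hochberg adjusted p of 0.05, all higher in AG. Isg15, Ifi27l2a, Bst2, Gbp2 and Cxcl9 of the interferon lists were among them, and Ifitm3 and Ly6e, which also passed, are known as interferon-induced. Stfa3, Aqp3, Calml3, Krt14 and Krt79 passed as well. Of the 13, 2 (Isg15 and Cxcl9) met the filter on low values only with the help of mice with antigen, where they were high. The p-values given for these 2 genes below are therefore partly drawn from the filter. In all, 360 genes had an unadjusted p under 0.05; 155 of them were higher and 205 lower, and the median log2 difference over all genes was -0.12.

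Isg15, a ubiquitin-like modifier, was at 0.0858 and 0.168 in the NO_AG mice, 2.93 and 6.44 in the AG mice, and 1.51 and 1.87 in the AG_CPI mice. The AG mice were highest, AG_CPI followed and NO_AG was low, with no overlap between any groups (log2 fold change of AG over NO_AG 4.32, SE 0.392, limma adjusted p 0.000789). Fold changes are on the scale of log2(level + 0.1), which understates those of low genes. Ifi27l2a, an interferon-stimulated gene with a close paralog whose reads may be shared, was at 0.139 and 0.534 in the NO_AG mice, 14.7 and 18.1 in the AG mice, and 4.34 and 8.16 in the AG_CPI mice. It had the same order of groups and rose by 5.40 (SE 0.428, limma adjusted p 0.000305). Ifitm3, which blocks viral entry, rose from 1.79 and 2.03 to 9.59 and 17.6 (2.71, SE 0.288, limma adjusted p 0.00285) and stood at 5.73 and 7.13 in AG_CPI. Bst2, a tether of budding viruses, rose from 0.219 and 0.213 to 1.86 and 3.19 (3.01, limma adjusted p 0.0379), and Ly6e from 1.20 and 1.29 to 4.30 and 5.42 (1.87, limma adjusted p 0.0166).

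Gbp2 and Cxcl9 of the interferon gamma list rose as well. Gbp2, an interferon-induced GTPase, was at 0.153 and 0.177 in the NO_AG mice, 1.69 and 2.66 in the AG mice, and 3.28 and 2.01 in the AG_CPI mice (AG over NO_AG 3.07, SE 0.348, limma adjusted p 0.0042). Cxcl9, the chemokine that recruits Cxcr3-bearing T cells, was at 0 and 0.357 in the NO_AG mice, 2.75 and 6.79 in the AG mice, and 7.80 and 7.60 in the AG_CPI mice (4.37, SE 0.601, limma adjusted p 0.0163). Both were low in NO_AG and high in all 4 mice with antigen. A Cxcl9 UMI was found in 0% and 5.73% of suprabasal cells in the NO_AG mice, 19.5% and 39.1% in the AG mice, and 30.6% and 53.7% in the AG_CPI mice. T cells, which should not express it, had shares of 0.827% and 1.54%, 2.58% and 12.3%, and 3.90% and 3.56%. With each cell thinned to 1500 UMIs the suprabasal shares were 0% and 3.52%, 10.3% and 30.4%, and 25% and 44.4%.

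**Figure D4:**
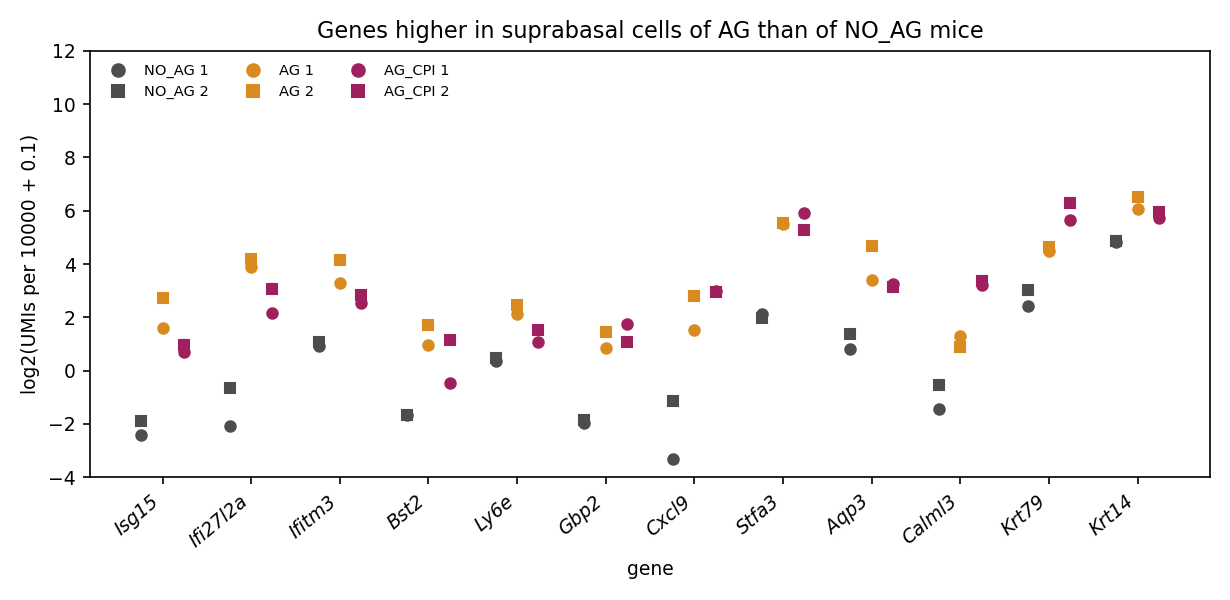
Levels in suprabasal cells, as log2 of UMIs per 10000 plus 0.1, of 12 genes that passed between AG and NO_AG; each point is a mouse. Isg15 was at 0.0858 and 0.168 in NO_AG and at 2.93 and 6.44 in AG, and all 12 genes lay higher in both AG mice than in both NO_AG mice.

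Since these interferon genes moved together, the bases before their annotated starts are shown, from RefSeq on build GRCm38.p6, the build of the deposited alignment. Interferon-stimulated response elements, bound by factors of the interferon pathways, were searched as GAAA, any 2 bases and GAAA on both strands in the 250 bases before the start, where matches may overlap. Capitals mark the matches, and each sequence reads 5′ to 3′ on the strand of its gene. Isg15 and Bst2 are given over the 150 bases before the start, and Gbp2 over 30 bases around its match, because a longer transcript in the GENCODE annotation begins there.
Isg15 (chr4:156200819-156200968, minus strand): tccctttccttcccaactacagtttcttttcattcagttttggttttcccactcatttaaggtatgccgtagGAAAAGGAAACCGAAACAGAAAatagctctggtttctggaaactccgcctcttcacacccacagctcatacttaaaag
Bst2 (chr8:71537473-71537622, minus strand): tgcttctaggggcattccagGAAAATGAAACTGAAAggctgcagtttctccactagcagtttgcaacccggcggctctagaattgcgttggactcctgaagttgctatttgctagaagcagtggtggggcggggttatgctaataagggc
Gbp2 (chr3:142620593-142620622, plus strand): aactcttttagTTTCACTTTCactgtctta
Isg15 held 3 overlapping matches, Bst2 2 overlapping ones and Gbp2 1 on the opposite strand. Of the 13 genes, 9 had a promoter in the table, and these 3 held the motif. It occurred in 3.46% of the 27025 gene symbols of the table. Of the 31 tested genes of both interferon lists, 24 had a promoter there and 8 held it. The gamma-activated site, searched as TTCNNNGAA, was in 1 of the 9 called genes and 6 of the 24 list genes, against 8.13% of all symbols. A match is a string of letters and not a measured binding site.

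Most other genes of the interferon lists did not pass the test. Of 16 tested type I interferon-stimulated genes (43 listed), 3 passed, against 0.189% of all genes tested. The filter on low values let 8 of the 16, Isg15, Oasl2 and Rtp4 among them, into the test only with the help of mice with antigen, so a count over the tested genes would partly follow from the filter. Counted over every measured gene of the list, whatever the filter, 32 of 40 lay higher in both AG mice than in both NO_AG mice and 0 lower, against 9.84% and 17.7% of the 16152 measured genes. Oasl2, an antiviral synthetase-like protein, was at 0.0337 and 0.134 in NO_AG and at 1.14 and 0.651 in AG (limma adjusted p 0.0712), and Rtp4 at 0.0599 and 0.0764 and at 0.690 and 0.673 (0.0712). Of 15 tested interferon gamma response genes, 3 passed, Cxcl9 with the same help from the filter. Over the 32 measured genes of this list, 12 lay higher without overlap and 1 lower. Ifngr1, the receptor chain that binds interferon gamma, was at 1.08 and 0.637 in NO_AG and lower in AG, at 0.337 and 0.102 (limma adjusted p 0.53). In AG_CPI against NO_AG, 2 of the 16 type I genes passed, and 22 of the 40 measured ones lay higher without overlap, against 10.7% of all measured genes. Both comparisons share the NO_AG mice.

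Beside the interferon genes, Stfa3, a stefin that inhibits cysteine proteases and has near-identical paralogs, was at 4.32 and 3.80 in the NO_AG mice, 44.9 and 46.2 in the AG mice, and 60.6 and 39.1 in the AG_CPI mice. It was high in all 4 mice with antigen and differed by 3.46 in AG (SE 0.227, limma adjusted p 8.77e-05) and 3.56 in AG_CPI (limma adjusted p 6.6e-05). Aqp3, the water and glycerol channel of the epidermis, rose from 1.65 and 2.48 to 10.5 and 25.7 (2.96, limma adjusted p 0.00727), with 9.30 and 8.63 in AG_CPI. Krt14 rose from 28.3 and 29.2 to 66.7 and 91.3 (1.44, limma adjusted p 0.0163), with 53.2 and 61.3 in AG_CPI. Among the other 14 basal layer genes tested, none passed, and 9 lay lower in both AG mice, against 24% of all genes. Krt15, a keratin of resting basal and bulge cells, was at 22.7 and 15.1 in NO_AG and 7.87 and 0.561 in AG, and Dst, which ties keratin to hemidesmosomes, at 4.29 and 3.16 and at 1.55 and 0.328. Krt5 was at 28.6 and 31.2, and at 51.0 and 17.7. Krt14 therefore differed in direction from most of its own list.

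The number of called genes depended on single mice. By limma it was 0 without AG 2 and 4 without either AG_CPI mouse, 20 and 28 without NO_AG 1 or NO_AG 2, and 23 without AG 1. Without AG 2, the differences were 3.77 for Isg15 (limma adjusted p 0.131), 5.25 for Ifi27l2a (0.227), 3.44 for Stfa3 (0.131) and 2.27 for Ifitm3 (0.131). They were 2.76 for Gbp2 (0.245), 3.74 for Cxcl9 (1.0), 2.31 for Calml3 (0.490), 1.77 for Krt79 (0.855), 2.32 for Aqp3 (0.227), 1.71 for Ly6e (0.443) and 1.21 for Krt14 (0.241), all in the same direction. Without AG_CPI 1, which enters this comparison through the shared spread, Isg15, Ifi27l2a, Gbp2 and Stfa3 passed. Among the suprabasal cells with Krt79 below 10, 3 genes passed (Stfa3, Ifi27l2a and Isg15), Cxcl9 differed by 4.50 (limma adjusted p 0.602) and Gbp2 by 3.03 (0.44), and Krt79, whose level the range fixes, by -0.03.

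AG_CPI against NO_AG asked how the skin with both antigen and CPI differed from skin without antigen. Here 37 of 6889 genes passed (0.537%), 24 higher (0.348%) and 13 lower (0.189%) in AG_CPI, with 810 at an unadjusted p under 0.05. The higher genes held the interferon genes Isg15, Ifi27l2a, Ifitm3, Gbp2 and Cxcl9 and the epidermal stress genes Krt16, Krt6a and Sprr1b. Calml3, Krt79 and Sdr16c6 rose too, and the lower genes were led by Cxcl14. The filter on low values let 7 of the 37 into the test only with the help of mice with antigen, where they were high, among them Cxcl9, Isg15, Krt6a, Sprr1b, Igfl3 and Penk, so that their p-values are partly drawn from the filter.

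The stress genes were high in AG 2 as well. Krt16 was at 0.408 and 0.224 in the NO_AG mice, 3.26 and 41.6 in the AG mice, and 24.1 and 16.4 in the AG_CPI mice, so AG 2 was the highest mouse and AG 1 stood between the groups. It was higher in AG_CPI than in NO_AG by 5.62 (SE 0.832, limma adjusted p 0.0173) and in AG by 4.87 (limma adjusted p 0.0601). Krt6a, its partner, was at 0.00972 and 0.0129, 0.564 and 13.9, and 16.1 and 5.22 (6.38 in AG_CPI, limma adjusted p 0.0267). In AG_CPI 1, the 4 highest of the 36 cells held 98.9% of the summed Krt6a level and, for Krt16, 96.6%, and the median of both was 0, whereas in AG_CPI 2 Krt6a was found in 27 and Krt16 in 38 of 54 cells. The means of AG_CPI 1, and the calls made with them, thus rest on about 4 cells there. The NO_AG levels of Krt6a rest on 2 and 1 UMIs, and the pseudocount sets the size of that change; Krt6b is nearly identical to it. Sprr1b, a cornified envelope precursor, was at 0.0154 and 0.126, 0.579 and 7.71, and 5.57 and 8.50 (5.43, limma adjusted p 0.0206). These 3 were the called genes among 10 tested of 39 listed stress keratins and alarmins, where 0.348% of all genes were called higher. The filter let 5 of the 10, Krt6a, Sprr1b and S100a8 among them, into the test only with the help of mice with antigen. Over the 25 measured genes of the list, 13 lay higher in both AG_CPI mice than in both NO_AG mice and 0 lower, against 10.7% and 23.4% of all measured genes. In AG against NO_AG none of the 10 passed, and 8 of the 25 lay higher and 1 lower, against 9.84% and 17.7% of all measured genes. The alarmin S100a8 was at 0.0210 and 0.0388 in the NO_AG mice, 0.281 and 0.111 in the AG mice, and 3.29 and 0.260 in the AG_CPI mice, so the mean of AG_CPI 1 alone was high (limma adjusted p 0.159 in AG_CPI). That mean came from 5 of its 36 cells, with 98.5% of the summed level in the 4 highest and a median of 0.

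Calml3, a calmodulin-like protein of differentiating epithelia, was at 0.267 and 0.580 without antigen, 2.38 and 1.73 in the AG mice, and 9.27 and 10.2 in the AG_CPI mice. No mice overlapped between groups, and the difference was 2.09 in AG (SE 0.325, limma adjusted p 0.0343) and 4.30 in AG_CPI (limma adjusted p 0.000192). Krt79 had the same order, at 5.34 and 7.99, 22.5 and 25, and 50.8 and 79.1 (1.84, limma adjusted p 0.0163, and 3.26, limma adjusted p 0.000203), and Sdr16c6, a retinol dehydrogenase-like enzyme, was at 0.442 and 0.585, 1.22 and 1.33, and 4.76 and 4.90 (3.02 in AG_CPI, limma adjusted p 0.00058). Among cells with Krt79 below 10, Calml3 still differed by 3.66 in AG_CPI (limma adjusted p 0.0806) and Sdr16c6 by 0.68 (0.552), while Krt79 differed by -0.39. Igfl3, a secreted growth factor-like protein, had no UMI in either NO_AG mouse, and was at 0.129 and 0.439 in AG and 1.27 and 2.18 in AG_CPI. It was tested only because mice with antigen met the filter, so its limma adjusted p of 0.00504 is no independent support. The suprabasal cells of AG_CPI held 99 UMIs of it among 344692, and those of NO_AG 0 among 3246802. Those UMIs came from 4 cells of AG_CPI 1 and 5 of AG_CPI 2. Penk, the enkephalin precursor, had 0 and 2 UMIs in NO_AG and was at 0.861 and 2.20 in AG_CPI, with a UMI in 2 cells of AG_CPI 1 and 14 of AG_CPI 2. It entered the test through the AG_CPI mice alone, where it was high, and was not tested without either of them, so its values are given as a description.

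The genes lower in AG_CPI included several secreted factors. Cxcl14, a chemokine made constitutively by keratinocytes, was at 1.44 and 1.35 in the NO_AG mice, 0.780 and 0.861 in the AG mice, and 0.108 and 0.0181 in the AG_CPI mice. The 3 groups followed each other without overlap, and AG_CPI differed from NO_AG by -3.25 (SE 0.394, limma adjusted p 0.00494). Pyy, a peptide hormone, was at 2.40 and 0.931, 0.232 and 0, and 0 in both AG_CPI mice (limma adjusted p 0.0216), with 575 UMIs in the NO_AG cells. Sema3d, a guidance factor, had no UMI in AG_CPI either and was at 0.736 and 0.681 in NO_AG (limma adjusted p 0.0424), with 205 UMIs. Wnt3, a ligand of the Wnt pathway, was at 0.823 and 0.839, 0.491 and 0.192, and 0 and 0.0616 (limma adjusted p 0.0316). Clca3a2 differed by -2.23, Ndufa4l2 by -3.45, Tubb4b by -1.78, Rsrp1 by -2.10, Pdzk1ip1 by -1.70, Anxa8 by -1.54, Tesc by -2.71 and Ipmk by -2.56, all with both AG_CPI mice below both NO_AG mice.

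Krt77 and Krtdap, which mark these cells, did not pass in AG_CPI. Krt77 differed by -5.56 (SE 1.13, limma adjusted p 0.0709) with both AG_CPI mice below both NO_AG mice, and Krtdap by -0.46 (limma adjusted p 0.411). The count of 37 fell to 7 without AG_CPI 1 and to 7 without AG_CPI 2, and ranged from 29 to 52 without any of the other mice. Without AG_CPI 1, the genes Stfa3, Calml3, Krt79, Sdr16c6 and Cxcl14 passed. The call was lost there for Isg15 (3.14, limma adjusted p 0.153), Ifi27l2a (4.40, 0.0724), Gbp2 (2.99, 0.0724), Cxcl9 (5.16, 0.162), Krt16 (5.34, 0.242), Igfl3 (4.50, 0.0724), Pyy (0.198), Sema3d (0.218) and Wnt3 (0.193), each in the same direction. Without AG_CPI 2, Stfa3, Calml3, Krt79, Sdr16c6 and Gbp2 passed, while Cxcl14 differed by -2.84 (limma adjusted p 0.0555) and Cxcl9 by 5.21 (0.158). Without AG 2, Ifi27l2a and Cxcl9 both had a limma adjusted p of 0.0516 and Gbp2, Isg15 and Krt16 still passed. Among cells with Krt79 below 10, 2 genes passed (Stfa3 and Ifi27l2a); the count was 13 with a Krt1 and Krt10 threshold of 100, 10 after thinning to 1500 UMIs, 16 in cells with no UMI of a T, NK or myeloid marker, and 4 with no filter on low values. Of the 15 basal layer genes, 9 lay lower in both AG_CPI mice than in both NO_AG mice, against 32.1% of all genes.

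AG_CPI against AG asked what CPI added. By limma, 0 of 6889 genes passed (0%), with 702 at an unadjusted p under 0.05, 277 higher and 425 lower. The genes with the smallest p were Penk, which only the AG_CPI mice brought past the filter, Calml3 (2.21, limma adjusted p 0.082) and Sdr16c6 (1.84, 0.082) on the higher side, and Cxcl14 (-2.55, 0.0887), Fam162a (-1.32, 0.349) and Ndufa4l2 (-2.57, 0.36) on the lower side. Fam162a, a mitochondrial protein induced in hypoxia, was at 7.81 and 7.16 in AG and 3.65 and 2.34 in AG_CPI, near the 3.45 and 4.42 of NO_AG. Without NO_AG 1 or NO_AG 2, 7 and 8 genes passed, and 1 without AG_CPI 2. Without AG 2 or without AG_CPI 1, 0 genes passed. Without AG 2, Calml3 differed by 1.99 (limma adjusted p 0.383), Sdr16c6 by 1.90 (0.328) and Cxcl14 by -2.49 (0.348). Without AG_CPI 1, Calml3 differed by 2.27 (limma adjusted p 0.363), Sdr16c6 by 1.86 (0.349) and Cxcl14 by -2.95 (0.172). Among cells with Krt79 below 10, Sdr16c6 differed by 0.11 (limma adjusted p 0.940), Calml3 by 1.99 and Cxcl14 by -2.81 (both 0.441). Of the 40 measured type I interferon genes, 16 lay lower without overlap, against 11.1% of all measured genes, and 2 higher, against 8.59%. Of the 22 tested class I genes, 9 lay lower without overlap, against 19.7% of all genes tested, and 2 higher, against 14.1%. Isg15 differed by -1.32 (limma adjusted p 0.424), Ifi27l2a by -1.44 (0.424), Gbp2 by 0.26 (0.825) and Cxcl9 by 0.81 (0.635).

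Whether the suprabasal cells answered differently from Krt5 and Krt14 keratinocytes was tested on the difference between both sets within each mouse, over 8223 genes. For AG against NO_AG, 0 genes passed by limma (0%), with 137 at an unadjusted p under 0.05. For AG_CPI against AG it was 0 (0%), with 851. For AG_CPI against NO_AG, 5 genes passed (0.0608%), 4 with a larger rise in the suprabasal cells (Calml3, Krt6a, Krt16 and Sprr1b; 0.0486%) and Krtdap with the opposite (0.0122%). Levels in both sets below were scaled together.

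Krt16 was at 0.0945 and 0.136 in the Krt5 and Krt14 cells of NO_AG, 0.661 and 5.37 in those of AG, and 0.416 and 0.400 in those of AG_CPI, while the suprabasal cells of AG_CPI reached 25.1 and 17.0. The response to AG_CPI was larger in suprabasal cells by 4.33 (SE 0.392, limma adjusted p 0.00191). Krt6a changed sides between the sets: in NO_AG it was at 0.432 and 1.14 in the Krt5 and Krt14 cells and 0.0106 and 0.0141 in the suprabasal cells, and in AG_CPI at 4.61 and 1.38 against 16.8 and 5.40 (4.73, SE 0.413, limma adjusted p 0.00191). Calml3 changed sides in the same way, from 1.66 and 1.71 against 0.292 and 0.634 to 2.26 and 2.47 against 9.67 and 10.6 (3.78, SE 0.311, limma adjusted p 0.00191). Sprr1b stayed at or below 0.114 in the Krt5 and Krt14 cells of AG_CPI and reached 5.81 and 8.80 in the suprabasal cells (4.92, SE 0.632, limma adjusted p 0.0263). It entered this test only with the help of mice with antigen, where it was high, so its p is partly drawn from the filter. In AG_CPI 1, the 4 highest of the 36 suprabasal cells held 83.4% of the summed Sprr1b level, 98.9% for Krt6a and 96.6% for Krt16.

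Krtdap differed most in the other set. It was at 1.72 and 1.34 in the Krt5 and Krt14 cells of NO_AG, 7.41 and 17.4 in those of AG, and 9.61 and 7.49 in those of AG_CPI, whereas the suprabasal cells had 109 and 117, 117 and 125, and 64.9 and 93.8. The response differed by -2.94 (SE 0.367, limma adjusted p 0.0257). The interferon genes were not among the 5, and Isg15 was at 0.250 and 0.400, 4.42 and 6.38, and 1.82 and 2.17 in the Krt5 and Krt14 cells. All 5 genes kept their direction in each of the 16 alternatives. Among suprabasal cells with Krt79 below 10, Calml3 differed by 3.11 (limma adjusted p 0.232), Krt16 by 4.71 (0.0652) and Sprr1b by 5.43 (0.0713). By limma the count was 0 without AG 1, AG 2 or AG_CPI 2, 9 and 14 without NO_AG 1 or NO_AG 2, 16 without AG_CPI 1, and 0 among suprabasal cells with Krt79 below 10, where Krt6a differed by 4.81 (limma adjusted p 0.0653) and Krtdap by -2.96 (0.0652).

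**Figure D5:**
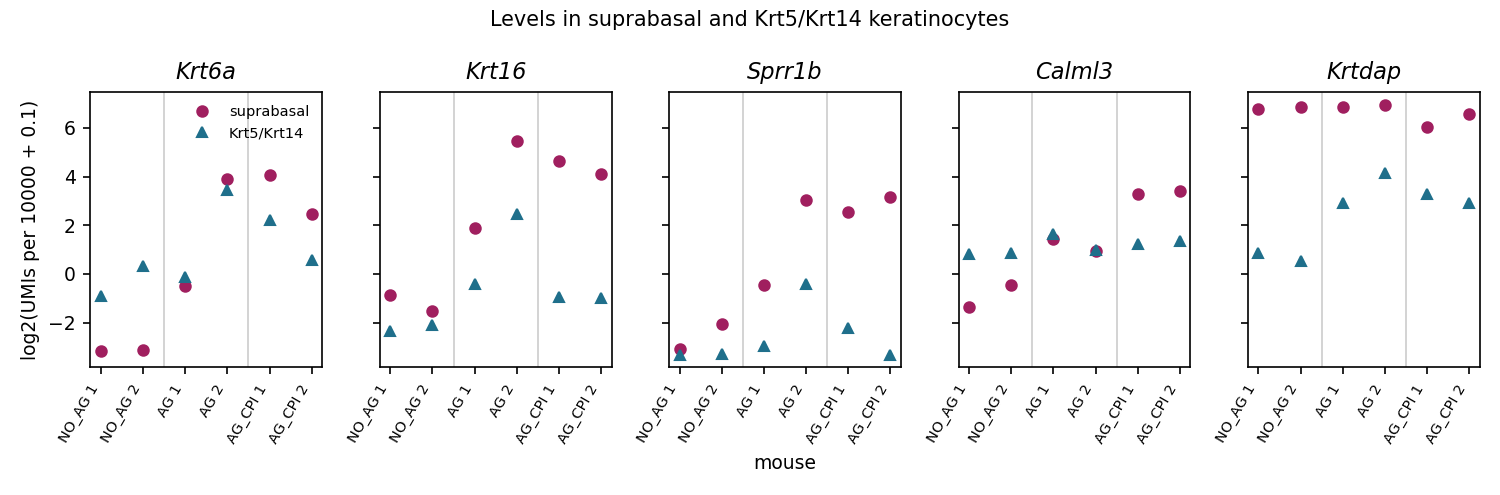
Levels (log2 of UMIs per 10000 plus 0.1) of the 5 genes whose response to AG_CPI differed between suprabasal and Krt5/Krt14 keratinocytes, by mouse. Krt6a and Calml3 lay higher in Krt5/Krt14 cells in NO_AG and higher in suprabasal cells in AG_CPI, and Krtdap in Krt5/Krt14 cells was at 1.72 and 1.34 in NO_AG and at 9.61 and 7.49 in AG_CPI.

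Of the lists of barrier formation, those of barrier lipids, junctions and granular and cornified genes held no called gene. Fabp5 was at 11.5 and 15.9 in the NO_AG mice, 45.5 and 291 in the AG mice, and 113 and 130 in the AG_CPI mice, low in NO_AG and high in all mice with antigen (3.08 in AG, limma adjusted p 0.111; 3.15 in AG_CPI, 0.0581). None of the 23 tested barrier lipid genes passed in any comparison of groups, and their median was 0.04 in AG and -0.02 in AG_CPI against NO_AG. None of 25 junction genes passed either. In AG against NO_AG, 7 lay higher without overlap and 4 lower, against 17.1% and 24% of all genes tested, with a median of 0.16. In AG_CPI against NO_AG, 11 lay higher and 5 lower, against 18.0% and 32.1%, with a median of 0.12. Dsc1, a desmosomal cadherin of the upper layers, differed by 1.07 in AG (limma adjusted p 0.901) and 1.66 in AG_CPI (0.139), and Gjb2, a gap junction protein, by 2.88 in AG_CPI (0.305). On the lower side, Dsc3, a desmosomal cadherin, was at 9.50 and 8.24 in the NO_AG mice, 5.94 and 5.51 in the AG mice, and 7.38 and 6.51 in the AG_CPI mice, and Dsg1a at 6.27 and 5.48, 4.45 and 4.31, and 5.09 and 5.87. Of 12 tested genes of the Notch pathway, which drives the exit from the basal layer, none passed, and Notch1 was at 1.27 and 0.877, 1.16 and 0.776, and 1.77 and 0.380. Over the 21 measured genes of this list, 1 lay higher and 8 lower without overlap in AG against NO_AG, against 9.84% and 17.7% of all measured genes. In AG_CPI against NO_AG, 1 lay higher and 4 lower, against 10.7% and 23.4%. Of 22 early differentiation genes tested, Calml3 alone passed in AG and in AG_CPI against NO_AG, where 0.189% and 0.537% of all genes did. In AG, 10 of them lay higher without overlap and 4 lower, against 17.1% and 24% of all genes tested, and in AG_CPI 8 lay higher and 8 lower, against 18.0% and 32.1%. Lgals7, a galectin of stratified epithelia, was at 137 and 137, 224 and 384, and 206 and 293 (limma adjusted p 0.237 in AG). Of the 9 granular and cornified genes tested none passed, with Asprv1, a filaggrin protease, at 0.3 and 0.806 in NO_AG and 0.955 and 9.05 in AG_CPI.

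Antigen presentation genes did not pass either. Of 22 class I genes tested, 0 passed in AG against NO_AG by limma and 15 lay higher without overlap, against 17.1% of all genes, with a median of 0.59. Psmb9, a catalytic subunit of the immunoproteasome, was at 0.652 and 0.815 in the NO_AG mice, 2.61 and 2.09 in the AG mice, and 1.62 and 1.54 in the AG_CPI mice (limma adjusted p 0.0712 in AG), and B2m, the light chain of class I molecules, at 12.7 and 12.7, 18.7 and 20.1, and 16.9 and 20.6 (0.636). The class II chaperone Cd74 lay between 0.880 and 2.50 in the suprabasal cells of all mice. In the Krt5 and Krt14 cells it was at 2.26 and 2.20 in the NO_AG mice, 5.76 and 12.9 in the AG mice, and 7.77 and 12.7 in the AG_CPI mice, a difference of response of -0.99 in AG_CPI (limma adjusted p 0.428). Leukocyte markers moved with it in those cells. The 14 myeloid markers summed to 0.396 and 0.357 in the NO_AG mice, 0.124 and 7.0 in the AG mice, and 0.580 and 5.04 in the AG_CPI mice, and the 16 T and NK cell markers to 0.839 and 0.796, 1.36 and 13.1, and 2.03 and 7.61, in deposited units. Both sums were highest in AG 2 and AG_CPI 2, the mice with the highest Cd74, and their part in it was not tested. Among 10 tested ligands for T cells, Cxcl9 passed in AG against NO_AG, where 0.189% of all genes were called. The filter let 5 of the 10, Cxcl9 and Ccl8 among them, into the test only with the help of mice with antigen. Over the 26 measured ligands, 6 lay higher without overlap and 0 lower, against 9.84% and 17.7% of all measured genes. Ccl8, a chemokine of monocytes and T cells, was at 0.0104 and 0.0323, 0.722 and 6.30, and 0.495 and 1.14 (limma adjusted p 0.0712 in AG). Cd274, which encodes the PD-1 ligand, had 0 to 6 UMIs in a mouse and was not tested. None of 15 tested cell death genes passed in any comparison of groups.

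Markers of other cells and of handling moved with the groups, and their part in these results was not tested. The summed level of 16 T and NK cell markers in the suprabasal cells was 0.376 and 1.15 in the NO_AG mice, 2.32 and 3.08 in the AG mice, and 1.91 and 5.67 in the AG_CPI mice, in deposited units. Cd4 was at 0 in all mice and Cd8a in 4, and the rise came from others of the list. Ccl5 reached 1.79 in AG 2, Cd3g 1.07 and Nkg7 0.662 in AG_CPI 2, and Trbc2 0.706 in AG 1 and 0.622 in AG_CPI 1. That of 14 myeloid markers was 0.281 and 0.445, 0.184 and 1.03, and 3.65 and 0.576, with Lyz2 at 1.35 and C1qb at 0.816 in AG_CPI 1 and Lyz2 at 0 in 4 of the 6 mice. Sums of 8 fibroblast markers were at most 0.0879, those of 5 endothelial markers at most 0.00525, and those of 5 melanocyte markers at most 0.443. Sebaceous gland markers summed to 0.572 to 4.27. The 15 hair follicle markers, Krt79 among them, summed to 43.5 and 41.9, 71.7 and 76.5, and 88.8 and 182. Of 16 genes induced by tissue dissociation none passed, and 11 lay lower in AG than in NO_AG without overlap, against 24% of all genes. Among them, Fos was at 4.12 and 3.54 in the NO_AG mice, 0.972 and 0 in the AG mice, and 1.28 and 0.862 in the AG_CPI mice. The mitochondrial share of UMIs was 4.38% and 4.66%, 4.51% and 4.08%, and 7.24% and 5.69%.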

How the data were processed

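Single-cell libraries of 6 mice were analysed, 2 per group. The authors deposited log10 values of 1 plus UMIs per 10000, from which UMI counts were recovered for depth. Alignment used Cell Ranger 3.1 and mm10, per the submitters' processing notes. Levels were averaged over the cells of a mouse, scaled by TMM, and tested as log2(level + 0.1) with limma-trend 3.58.1 in R 4.3.3, with all 6 mice in 1 fit and Benjamini-Hochberg adjustment over all genes. Genes needed 10 UMIs and a mean of 0.1 in at least 2 libraries. A test between suprabasal and Krt5/Krt14 cells had been planned, and is given as a description because keratins chose both sets. Levels of both sets were scaled together, so suprabasal values there differ slightly. Tested on simulated AG against NO_AG data (6941 genes, 10 draws), 8% of 2-fold, 82.2% of 4-fold and 99.2% of 8-fold changes were recovered, with 0.4 false calls per draw. The draws changed only genes well above the filter level in NO_AG and gave all mice the same spread beyond counting error. Genes carried by a few cells were not simulated, so these rates do not give the recovery in the real mice. Doublet scores came from Scrublet in scanpy 1.11.5. Members and lists were chosen with earlier results of these data known. Named genes were up to 12 called per direction by smallest p with groups not overlapping, 3 per direction where none was called, and the 4 of each list with the smallest p in AG against NO_AG; further list members were named after their values were seen. Alternatives changed the pseudocount, filter, scaling, threshold, depth, doublets, leukocyte marker UMIs, replicate block and single mice. Some called genes are not reported here.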

Additional observations from a re-analysis of the deposited data

Results flagged for a closer look

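The response to AG_CPI against NO_AG differed between the suprabasal and the Krt5/Krt14 keratinocytes for 5 genes, by the limma test of the difference itself (adjusted over 8223 genes, 2 mice a group). The difference was 3.78 for Calml3, 4.73 for Krt6a, 4.33 for Krt16, 4.92 for Sprr1b and -2.94 for Krtdap on the log2 scale. Sprr1b entered that test only with the help of mice with antigen, where it was high, so its call is partly drawn from the filter. A UMI of the Y-linked gene Ddx3y, outside the measurements compared, was found in 16.7% of the suprabasal cells of AG_CPI 1 and in none of the other 5 mice.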

How the results depend on the processing

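Of the values of named genes with a test, 681 kept their direction and side of the threshold, 248 lost the call, 38 gained one and 2 reversed, which were Krt79 among cells with Krt79 below 10 (-0.0295 in AG and -0.39 in AG_CPI against NO_AG; this range was chosen after seeing the data). Of those without a test, 340 moved by less than the spread and 20 by more. The AG against NO_AG count of 13 became 1 with no filter, 7 with a threshold of 100, 8 without leukocyte marker UMIs, 5 after thinning to 1500 UMIs, 3 with Krt79 below 10, and 0 to 28 leaving out 1 mouse. The AG_CPI against NO_AG count of 37 became 4, 13, 16, 10 and 2 under the same settings, and 7 to 52 leaving out 1 mouse. The AG_CPI against AG count of 0 became 4 with a pseudocount of 0.5, and 0 to 8 leaving out 1 mouse. The 523 genes between the sets became 145 with a pseudocount of 0.5, and 511 to 637 leaving out 1 mouse. The 5 response differences of AG_CPI against NO_AG became 0 with no filter, 2 with a threshold of 100, 0 with Krt79 below 10, and 0 to 16 leaving out 1 mouse; those of AG against NO_AG became 0 to 2. For AG_CPI against AG they became 2 with the deposited scaling alone, 1 after thinning, and 0 to 8 leaving out 1 mouse. The causes were not tested.

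The share difference of AG against NO_AG was 5.51 points without AG 2 and ranged from -11.0 to 5.51 leaving out 1 mouse. That of AG_CPI against AG ranged from 5.76 to 22.3 and was 5.98 with a threshold of 100 and 2.51 with Krt79 below 10. That of AG_CPI against NO_AG ranged from 9.66 to 12.9, was 3.13 with a threshold of 100, and reversed to -1.45 with Krt79 below 10. The shares with Krt79 below 10 are of all keratinocytes, the Krt79 range included, which lowers them most in AG_CPI. Where 1 mouse is left in a group, it is assumed to vary like the others.

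With the replicate number as a block, the counts of called genes were 45 (AG against NO_AG), 10 (AG_CPI against AG) and 122 (AG_CPI against NO_AG), and those of the response difference 8, 9 and 30. Over all 6889 genes, samples with the same number did not deviate together (correlations 0.00142, 0.0413 and 0.0371). With 2 mice a group, this does not show whether they share more than a number for some genes.

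With 23 to 54 cells in AG 2 and the AG_CPI mice, a gene near the filter rests on few UMIs there.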
